A study of Homo sapiens with 27 samples.

Results

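The samples compared here are the solvent-control channels of 12 of the 27 arrays in a study of HepG2 cells and polycyclic aromatic hydrocarbons. HepG2 is a human hepatocellular carcinoma line. Cells were exposed for 48 h to 1 of 9 hydrocarbons, and each 44K whole-genome array carried RNA of exposed cells, labelled with Cy5, beside RNA of solvent controls kept in DMSO, labelled with Cy3. The Cy3 channel was taken from the 3 arrays each of chrysene (CHR), benzo[a]anthracene (BA), benzo[a]pyrene (BaP) and phenanthrene (PH), which share a platform and layout. The 6 CHR and BA arrays were set against the 6 BaP and PH arrays. By their labels all 12 samples are the same, DMSO-treated HepG2 RNA from a Trizol extraction, so a compound name below says only which array a DMSO sample was on. The labels give no doses or dates, and do not say whether the DMSO samples of a compound came from separate cultures or from 1 extract. The p-values therefore measure the spread between these arrays and compounds, which may be technical.

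HepG2 cells keep many features of hepatocytes, such as the transcription factors that drive plasma protein and apolipoprotein genes, and they divide quickly in culture. Liver cells adjust sterol and fatty acid synthesis, amino acid synthesis and stress genes to the medium they are in. HepG2 also carries an abnormal set of chromosomes. In a design with a DMSO channel on every array, that channel is the baseline of each ratio.

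Levels below are log2 intensities of a spot after subtraction of the local background, with the 12 arrays scaled to 1 distribution. Differences are in log2 units, and a level of one gene cannot be set against that of another, since probes differ. Of 17139 genes tested, 2199 were higher in the CHR and BA arrays (12.8%) and 800 were lower (4.67%), at an adjusted p under 0.05 by limma and at least 2-fold. At 4-fold or more, 1031 genes were higher and 46 lower. For 7115 genes (41.5%) all arrays of one set lay beyond all arrays of the other. An earlier analysis had already clustered the same channel into these sets, so the tests give the size of a difference against the spread and are no independent evidence that the sets exist. Spearman correlations between arrays, across genes, were 0.975 to 0.995 within a compound (12 pairs), 0.958 to 0.985 between compounds of a set (18 pairs) and 0.878 to 0.942 between sets (36 pairs).

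The arrays also differed before scaling. The median net Cy3 signal of a spot was 903 to 1253 intensity units on CHR and BA arrays and 467 to 647 on BaP and PH arrays. Between 71.1% and 88.7% of spots stood above background on CHR and BA arrays, and between 88.0% and 92.5% on BaP and PH arrays, and the background SD was largest on the CHR arrays (median 135 to 159, against 13 to 51 on the others). The split of calls depended on scaling. Of the calls, 73.3% were higher after quantile scaling and 32.3% after median centring (1744 higher, 10.2% of all genes, and 3657 lower, 21.3%), and the median difference over all genes was -0.20 and -0.64. List medians are to be read against these 2 values, with a limit for bright genes after median centring. The 99th percentile of net signal was alike, 33661 to 36940 on CHR and BA and 32407 to 36699 on BaP and PH arrays. Median centring therefore moved bright genes below the median over all genes. Cytosolic ribosomal protein genes had a median of -1.22 and respiratory chain subunits of -1.15 there. The part of the signal distribution in the results was not tested.

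Hepatocyte genes were seen on all 12 arrays, which does not test the identity of the cell line. All 15 hepatocyte markers stood above background on every array, with a summed level of 512783 to 615436 intensity units on CHR and BA arrays and 459548 to 538519 on BaP and PH arrays. ALB, the gene of serum albumin, was at 15.23 to 15.94 on CHR and BA arrays and at 15.82 to 15.97 on BaP and PH arrays, saturated on 10 arrays. TF, the iron carrier transferrin, was saturated on all 12, so these probes could not show a difference. Markers of other cell types were also read. Of 5 leukocyte markers 3 stood above background on all 12 arrays, with sums of 2468 to 8462 on CHR and BA and 6873 to 8336 on BaP and PH arrays. The same held for 2 of 4 endothelial markers (889 to 1214 and 759 to 1281) and for 3 of 7 fibroblast or stellate markers (8455 to 11225 and 9352 to 15439). Of 7 markers of other epithelia 3 did, with sums of 31433 to 37570 on CHR and BA and 15641 to 19683 on BaP and PH arrays. In that list 2 members were called higher and 0 lower, beside 12.8% and 4.67% of all genes, with a median difference of 0.23. They were SFTPC, whose 2 probes disagree as given below, and CDX2, which was not called after median centring. Each marker of every list stood above background on at least 2 arrays, and the part of these markers in the results was not tested.

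The largest positive differences were seen in genes of unrelated functions. MVD, a decarboxylase of cholesterol synthesis on chromosome 16, had levels of 12.55, 12.03 and 11.88 on CHR arrays and 10.82, 11.76 and 12.01 on BA arrays, against 7.05, 7.49 and 6.96 on BaP arrays and 5 (the floor), 8.49 and 5.73 on PH arrays. The sets did not overlap, which was a condition of the choice of these genes. PH array 1 was at the floor, and MVD stood above background on only 2 BaP and 2 PH arrays. The difference was 5.06 ± 0.95 (SE, adjusted p = 0.000754 by limma).

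LTBR, the lymphotoxin beta receptor on chromosome 12, had levels of 13.10, 13.19 and 13.35 on CHR arrays and 13.49, 12.80 and 13.00 on BA arrays, against 8.34, 8.62 and 8.65 on BaP arrays and 8.24, 7.71 and 7.55 on PH arrays. It differed by 4.97 ± 0.32 (SE, adjusted p = 1.95e-08), far more than arrays of a set differed among themselves. TMEM63B, which encodes a membrane ion channel, was at 13.07 to 13.72 on CHR and BA arrays and at 8.33 to 8.88 on BaP and PH arrays, a difference of 4.76 ± 0.23 (SE, adjusted p = 1.93e-09).

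KIR3DL3, a receptor gene of natural killer cells on chromosome 19, had the largest difference, 5.15 ± 1.22 (SE, adjusted p = 0.00369), and the widest scatter. Its levels were 9.90, 13.78 and 13.62 on CHR arrays and 11.82, 11.21 and 12.27 on BA arrays, against 7.60, 7.46 and 7.53 on BaP arrays and 6.68, 7.43 and 5 (the floor) on PH arrays. Genes of this family are near-identical in sequence, so the signal is not certain to be of this member. SLC29A4, a monoamine transporter, differed by 5.06, RPS19BP1 by 4.96 and BCAR1, a focal adhesion scaffold, by 4.79. SBF1 differed by 4.78, GRM4, a glutamate receptor, by 4.75 and FKBP8, a chaperone of the mitochondrial membrane, by 4.74. IRF7, a transcription factor of the interferon response, differed by 5.0 on the probe used and by 0.07 on a second probe, so its 2 probes disagree.

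**Figure D1:**
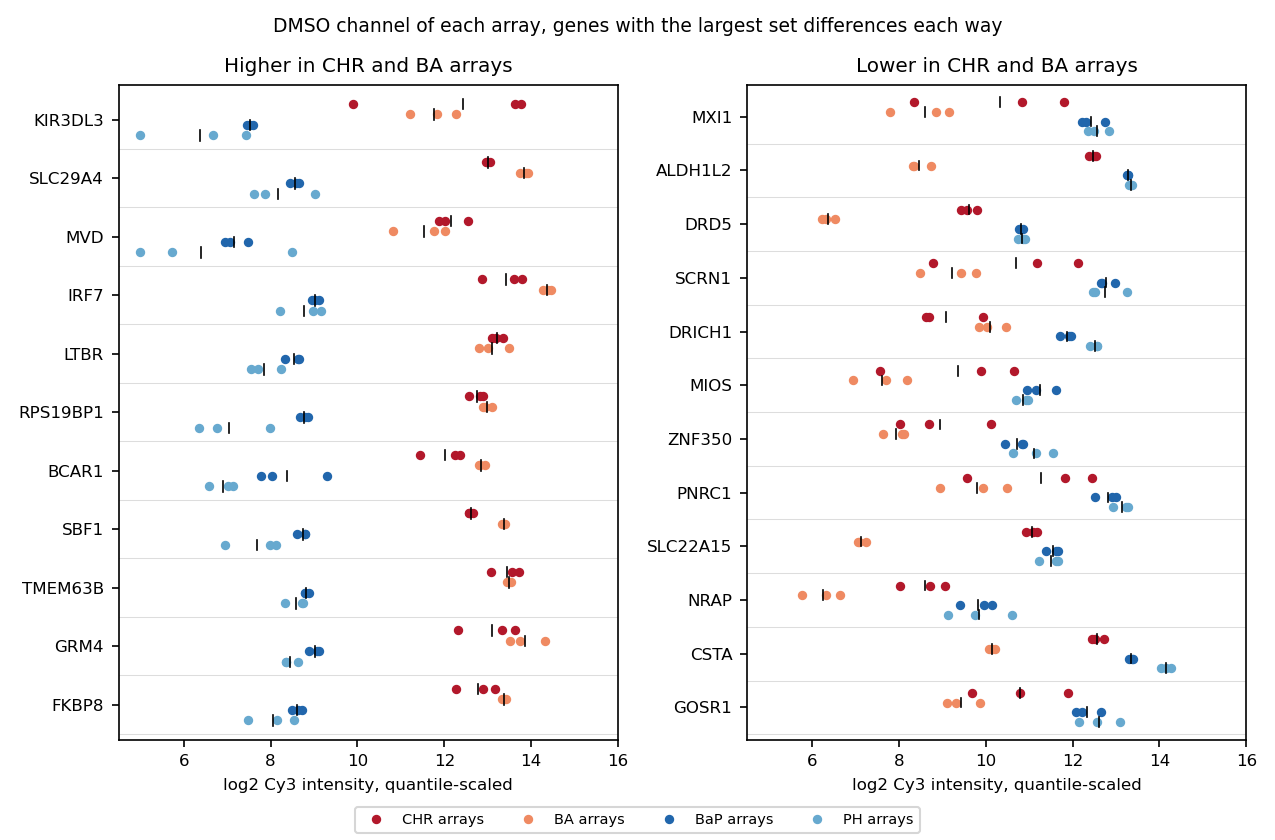
Each point is the quantile-scaled log2 Cy3 intensity of 1 array (3 arrays per compound), with a black bar at the mean of each compound, for 11 of the 12 genes with the largest positive (left) and the 12 with the largest negative (right) difference of CHR and BA minus BaP and PH arrays. On the left both compounds of a set lie together, as for LTBR at 12.80 to 13.49 on CHR and BA arrays and 7.55 to 8.65 on BaP and PH arrays; on the right the BA points of ALDH1L2, DRD5 and SLC22A15 lie far below the CHR points.

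Other probes of the genes called higher went the same way in 557 of 1011 cases (55.1%) at 2-fold or more and the opposite way in 30. For genes called lower, 33.2% of 386 other probes passed 2-fold in the same direction and 7 in the opposite one. The median ratio of another probe's difference to that of the probe used was 0.69 for genes higher and 0.61 for genes lower. The differences given here are those of the brightest probe of each gene, and other probes mostly showed smaller ones.

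Genes of fatty acid and triglyceride synthesis were higher in the CHR and BA arrays for 6 of 19 members and lower for 0, beside 12.8% and 4.67% of all genes, with a median of 0.58 beside -0.20 over all genes. After median centring 5 were higher and 4 lower, beside 10.2% and 21.3% of all genes. FASN, the fatty acid synthase on chromosome 17, had levels of 14.42 to 15.07 on CHR arrays and 14.73 to 15.20 on BA arrays, against 10.36 to 10.56 on BaP arrays and 10.09 to 10.37 on PH arrays. All CHR and BA values lay well above all others, and the difference was 4.59 ± 0.25 (SE, adjusted p = 4.49e-09). MLXIPL, the glucose-responsive factor ChREBP, differed by 2.36, with 2 other probes at 3.04 and 3.38. DGAT1, which completes triglycerides, differed by 2.24 and ACACB, an acetyl-CoA carboxylase, by 2.22. AGPAT2, an acyltransferase of phosphatidic acid synthesis, differed by 4.45 between sets and by -2.80 between CHR and BA, and it stood above background on all 3 BA arrays but on only 1 array of each other compound.

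Of 24 genes of cholesterol synthesis and uptake 6 were higher and 0 lower, beside 12.8% and 4.67% of all genes, with a median of -0.09. After median centring 3 were higher and 5 lower, a share of lower calls near that of all genes (21.3%). Besides MVD they included SREBF2, the transcription factor that drives these genes, with levels of 13.44, 14.52 and 13.96 on CHR arrays and 14.18, 14.44 and 14.46 on BA arrays, against 11.82, 11.85 and 11.93 on BaP arrays and 11.71, 11.67 and 11.90 on PH arrays. Its difference was 2.36 on the probe used and 2.34 on a second probe. MVK, mevalonate kinase, differed by 2.15 and, on a second probe, by 3.75, TM7SF2, a sterol reductase, by 1.32 and DHCR7, of the last step, by 1.02. After median centring the difference was 0.70 for TM7SF2 and 0.15 for DHCR7 (adjusted p = 0.544 by limma), and neither was called. DHCR7 also fell short of the 2-fold threshold without CHR array 1 (0.98), BA array 2 (0.99) or BA array 3 (0.99).

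Lysosomal genes were higher for 6 of 28 members and lower for 0, beside 12.8% and 4.67% of all genes, with a median of 0.13. After median centring 5 were higher and 3 lower, beside 10.2% and 21.3% of all genes. CTSD, the protease cathepsin D, had levels of 14.91, 14.91 and 14.85 on CHR arrays and 14.51, 14.86 and 14.67 on BA arrays, against 10.67, 10.61 and 10.59 on BaP arrays and 10.31, 10.46 and 10.39 on PH arrays. Both sets were tight, and the difference was 4.28 ± 0.14 (SE, adjusted p = 1.08e-10). ARSA, arylsulfatase A, differed by 2.44, TFEB, a transcription factor of lysosomal genes, by 1.68, MCOLN1, a lysosomal ion channel, by 1.54 and ATP6V0D1, a proton pump subunit, by 1.39.

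Of 19 hepatocyte transcription factors 3 were higher and 1 lower, shares near the 12.8% and 4.67% of all genes. After median centring 2 were higher and 3 lower, beside 10.2% and 21.3% of all genes. CEBPA, which restrains hepatocyte division, had levels of 15.38, 15.29 and 15.20 on CHR arrays and 14.17, 14.29 and 14.32 on BA arrays, against 12.48, 12.53 and 12.64 on BaP arrays and 12.57, 12.50 and 12.45 on PH arrays. Its difference was 2.25, with 2.01 and 2.18 on 2 other probes. RXRA, the partner of many nuclear receptors, differed by 1.19, and by 0.89 after median centring, where it was not called. The bile acid receptor gene NR1H4 was the one called lower, at -1.01. NR1H4 stood at -0.996 to -0.959, short of the 2-fold threshold, without BA array 1 or 2, BaP array 1 or 3, or PH array 1. HNF4A (0.32) and FOXA2 (0.70) did not pass the test for a call.

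Genes of secreted hepatocyte products were called in both directions. Of 15 apolipoprotein and lipid particle genes 4 were higher and 1 lower, beside 12.8% and 4.67% of all genes. After median centring 3 were higher and 7 lower, beside 10.2% and 21.3% of all genes, with a median of -1.04 beside -0.64. APOA1, the main protein of high-density lipoprotein, had levels of 15.87, 15.62 and 15.61 on CHR arrays and 15.68, 15.81 and 15.74 on BA arrays, against 14.51, 14.45 and 14.46 on BaP arrays and 13.95, 14.11 and 14.01 on PH arrays, a difference of 1.48 with 2 arrays saturated. After median centring the difference of APOA1 was 0.60, short of 2-fold. LCAT, which esterifies plasma cholesterol, differed by 2.46, APOE by 1.96, APOA4 by 1.14 and APOC2, the activator of lipoprotein lipase, by -1.41. Of 25 plasma protein genes 2 were higher and 2 lower, not far from the shares of all genes. PLG, plasminogen, differed by 3.18, with 3 other probes at 0.36 to 1.88, and A1BG by 1.94, with a second probe at -0.44. KNG1, kininogen, differed by -1.64 and FETUB by -1.60. The call of KNG1 was lost without any 1 of the BA or PH arrays (adjusted p = 0.0522 to 0.0536 by limma). With 1 mean per compound, 2 against 2, the calls of APOC2 and FETUB were lost too (adjusted p = 0.0865 and 0.166 by limma), and FETUB's also with a higher floor (0.0537). After median centring 16 of the 25 plasma protein genes were lower and 2 higher, beside 21.3% and 10.2% of all genes, with a median of -1.07 beside -0.64. Saturated probes moved alike there, ALB to -1.17 and TF to -1.07, though they could not show a difference. For both lists the lower calls and medians after median centring thus cannot be told apart from the scaling.

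Enzymes of sugar and amino acid metabolism were called in both directions. PFKL, the liver phosphofructokinase, had levels of 14.75, 14.87 and 14.72 on CHR arrays and 14.32, 14.43 and 14.31 on BA arrays, against 11.38, 11.33 and 11.35 on BaP arrays and 10.86, 11.15 and 11.03 on PH arrays. The sets did not overlap, and its difference was 3.38, with 3.47 on a second probe. Of 26 genes of glycolysis and hypoxia 5 were higher and 1 lower, and of 20 genes of the urea cycle and amino acid breakdown 4 were higher and 3 lower, beside 12.8% and 4.67% of all genes. After median centring the counts were 3 and 5, and 3 and 9, beside 10.2% and 21.3%. PRODH, proline dehydrogenase, differed by 2.69 and ASL, of the urea cycle, by 2.44. SDS, serine dehydratase, differed by 4.25 on the probe used and by -0.70 on a second probe. HSD3B7, of bile acid synthesis, differed by 4.04 and FGFR4, the hepatocyte receptor for FGF19, by 2.81.

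Signalling genes differed as single members. NOTUM, a secreted WNT inhibitor, had levels of 15.02, 14.88 and 14.82 on CHR arrays and 14.41, 14.77 and 14.67 on BA arrays, against 11.40, 11.35 and 11.36 on BaP arrays and 11.23, 10.88 and 11.19 on PH arrays, a difference of 3.53 ± 0.18 (SE, adjusted p = 2.06e-09). Of 23 WNT, hedgehog and progenitor genes 5 were higher and 0 lower, beside 12.8% and 4.67% of all genes, and after median centring 3 were higher and 4 lower, shares near those of all genes. TGFB1, which encodes the cytokine TGF-beta 1, differed by 3.76, KEAP1, the inhibitor of NRF2, by 2.41, and JUN, an AP-1 subunit, by 2.35. SFTPC, a surfactant protein of lung epithelium in the list of other epithelial markers, was at 13.32 to 14.23 on CHR and BA arrays and at 8.61 to 9.73 on BaP and PH arrays. Its second probe differed by 0.48 where the first differed by 4.60.

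Of 30 genes of G2 and mitosis 0 were higher and 6 lower, beside 12.8% and 4.67% of all genes, with a median of -0.76 beside -0.20 over all genes. HMMR, a spindle protein, had levels of 12.25, 12.17 and 12.36 on CHR arrays and 12.06, 12.20 and 12.18 on BA arrays, against 13.25, 13.21 and 13.26 on BaP arrays and 13.22, 13.25 and 13.35 on PH arrays. The arrays of each set agreed closely, and the difference was -1.05 ± 0.11 (SE, adjusted p = 4.57e-06). NDC80, of the kinetochore, differed by -1.41, CDC25C, the phosphatase that starts mitosis, by -1.19, and the kinesins CENPE and KIF20A by -1.15 and -1.12. The call of CENPE was lost with 1 mean per compound, 2 against 2 (adjusted p = 0.0507 by limma). After median centring 20 of the 30 were lower, beside 21.3% of all genes, with a median of -1.23 beside -0.64. Cytosolic ribosomal protein genes had a like median there (-1.22), but -0.23 after quantile scaling, where the mitosis list had -0.76. In the Cy5 channel of the same arrays the list's median was 0.68 with 0 members called, but there the sets hold cells given different compounds.

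The aryl hydrocarbon receptor is the protein through which such hydrocarbons induce CYP1A1. Of 15 genes of this receptor and its targets 0 were higher and 2 lower, beside 12.8% and 4.67% of all genes. The same numbers were called after median centring, but there beside 10.2% and 21.3% of all genes. AHR, the receptor, differed by -1.02 (adjusted p = 0.00311 by limma) and so did TIPARP, a target that represses it (adjusted p = 0.000355 by limma). Both lay at the 2-fold threshold: AHR was at -0.919 without CHR array 3, -0.999 and -0.991 without BaP arrays 1 and 2 in turn and -0.981 without PH array 3, and TIPARP at -0.996 without BaP array 3 and -0.986 without PH array 2. CYP1A1 had levels of 9.14, 9.97 and 10.07 on CHR arrays and 9.81, 9.12 and 9.18 on BA arrays, against 10.50, 10.51 and 10.60 on BaP arrays and 10.11, 10.59 and 10.06 on PH arrays. The 2 sets overlapped only at the edge, and its difference of -0.84 did not pass the test (adjusted p = 0.0837 by limma).

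Among the 12 genes with the largest negative differences, chosen with separate sets, ALDH1L2, DRD5, SLC22A15 and CSTA had BA arrays far below the CHR arrays, which lay below all BaP and PH arrays by less. ALDH1L2, a mitochondrial enzyme of folate metabolism on chromosome 12, had levels of 12.49, 12.37 and 12.54 on CHR arrays and 8.75, 8.32 and 8.35 on BA arrays, against 13.28, 13.26 and 13.27 on BaP arrays and 13.35, 13.30 and 13.38 on PH arrays. Its set difference was -2.84 ± 0.75 (SE, adjusted p = 0.00731), and CHR minus BA was 3.99 ± 0.10 (SE, adjusted p = 1.94e-10). DRD5, a dopamine receptor, differed by -2.84 between sets and by 3.24 between CHR and BA. SLC22A15, of an organic ion transporter family, differed by -2.43 and 3.94, and CSTA, the protease inhibitor cystatin A, by -2.40 and 2.42. With 1 mean per compound, 2 against 2, the set differences of all 4 genes missed the threshold, with adjusted p by limma of 0.0978 for ALDH1L2, 0.0673 for DRD5, 0.139 for SLC22A15 and 0.0529 for CSTA. Of the 800 genes lower in the CHR and BA arrays, 234 were also called higher in CHR than in BA, and 124 were called lower in each of the 4 pairs of compounds across sets. Of the 2199 higher genes, 1661 were called in all 4 pairs.

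In other genes of the 12 the arrays of 1 compound scattered. MXI1, an antagonist of MYC on chromosome 10, had levels of 11.80, 10.83 and 8.34 on CHR arrays and 8.85, 9.15 and 7.79 on BA arrays, against 12.76, 12.31 and 12.22 on BaP arrays and 12.49, 12.83 and 12.36 on PH arrays. The difference was -3.04 ± 0.96 (SE, adjusted p = 0.0197). SCRN1 differed by -2.80, MIOS, a subunit of an amino acid sensing complex, by -2.56 and PNRC1, a nuclear receptor coactivator, by -2.45. Without PH arrays 1, 2 or 3 in turn the adjusted p by limma was 0.0527 to 0.0718 for MIOS and 0.0601 to 0.0662 for PNRC1, and it was 0.0533 and 0.0531 for SCRN1 without PH arrays 1 and 3. In all 4 genes CHR array 1 was the highest and array 3 the lowest of its compound, and BA array 3 was the lowest BA value. ZNF350, a zinc finger repressor, differed by -2.47 and GOSR1, a Golgi SNARE protein, by -2.35. DRICH1 differed by -2.59 between sets and by -1.03 between CHR and BA, against the direction of the other genes of the 12. NRAP, an actin-binding protein of muscle, differed by -2.41 and stood above background on 1 BA array, and 2 other probes were at 0.06 and 0.65. It was at 0.62 when spots marked not found were left out and at -0.57 as a mean over probes, with no call in either case or with 1 mean per compound (adjusted p = 0.0547 by limma).

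Genes called higher were unevenly spread over the genome, as placed by RefSeq on GRCh38.p14. Shares by chromosome were read after quantile scaling only, and the split of calls depended on scaling. They made up 29.7% of tested genes on chromosome 19, 26.9% on chromosome 16, 24.5% on chromosome 22, 18.1% on chromosome 20 and 17.2% on chromosome 17, beside 12.8% of all genes. They made up 3.69% on chromosome 18 and 4.87% on chromosome 4. Genes called lower made up 11.6% on chromosome 10 and 8.45% on chromosome 5, beside 4.67% of all genes. In windows of 10 Mb on chromosomes chosen after the values were seen, genes with a mean level of 9 or more had a median difference of 1.03 over the first window of chromosome 16 (133 genes), 1.23 over the last of chromosome 17 (56 genes) and 1.16 over the last of chromosome 20 (46 genes). Genes called higher spanned a median of 15.5 kb of genome, genes called lower 37.8 kb and genes not called 29.3 kb. Across all 17139 genes, which are not independent, Spearman's rho between span and difference was -0.20.

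**Figure D2:**
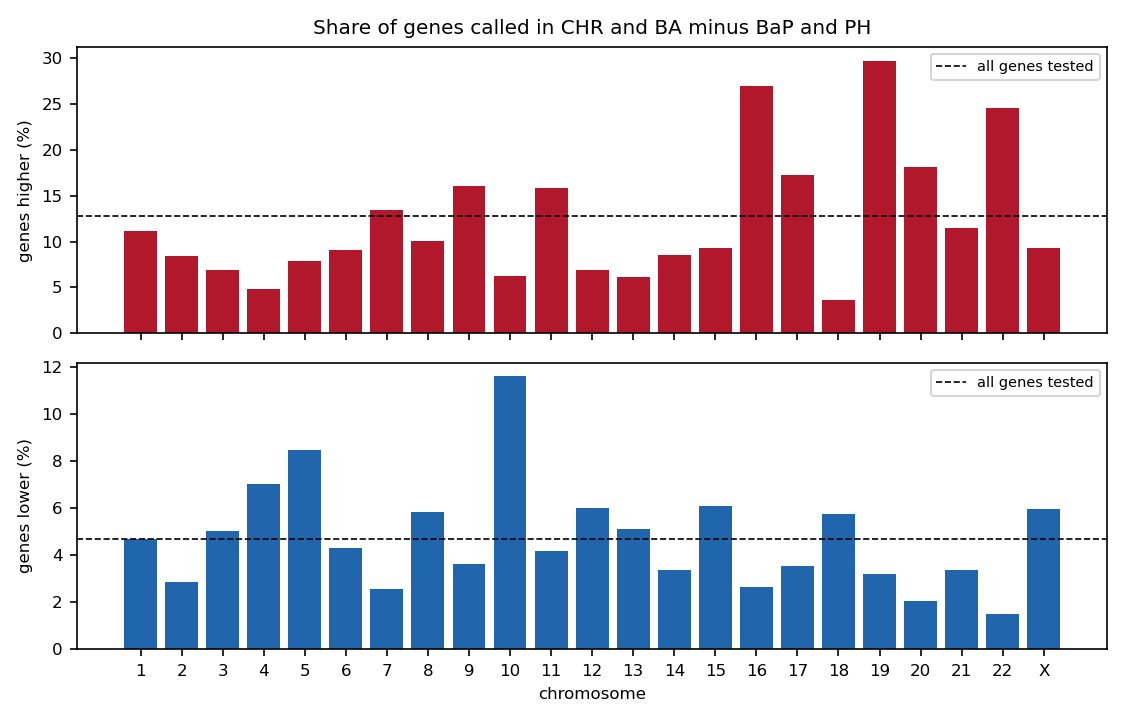
Bars give the percent of tested genes on each chromosome called higher (top) or lower (bottom) in CHR and BA minus BaP and PH arrays, and dashed lines give the percent over all genes (12.8% and 4.67%). Chromosomes 19, 16 and 22 stand highest in the top panel (29.7%, 26.9% and 24.5%) and chromosome 10 in the bottom panel (11.6%).

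The Cy5 channel, which holds the RNA of compound-treated cells, gave a similar set difference. There 1357 genes were higher (7.92%) and 343 lower (2%), and after median centring 1037 and 881. Of the 2199 genes higher in Cy3, 1319 were higher in Cy5 and 0 lower. Of the 800 lower genes, 182 were lower in Cy5 and 1 was higher. FASN differed by 3.90 in Cy5, CTSD by 3.49, LTBR by 4.16, NOTUM by 2.55 and ALDH1L2 by -2.63. Across the 17139 genes the Cy3 and Cy5 differences had a Pearson correlation of 0.91. For CHR minus BA it was 0.69 and for BaP minus PH 0.54. The channels share arrays and spots, and in Cy5 set and compound cannot be told apart. With 1 mean per compound, 2 against 2, limma called 0 genes in Cy5 (1834 higher and 965 lower at an unadjusted p under 0.05) and 2418 in Cy3.

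**Figure D3:**
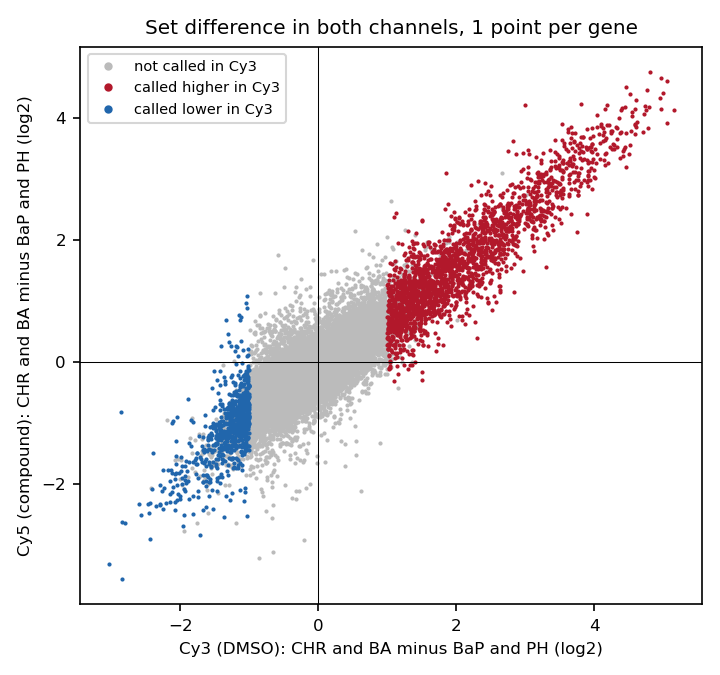
Each point is 1 gene, with the difference of CHR and BA minus BaP and PH arrays in Cy3 (DMSO, horizontal) and in Cy5 (compound, vertical), both in log2 units, coloured by the call in Cy3. The points called higher in Cy3 extend to the upper right, and 1319 of these 2199 genes were also called higher in Cy5.

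DMSO samples also differed inside the CHR and BA set. CHR minus BA gave 781 genes higher (4.56%) and 691 lower (4.03%), and BaP minus PH gave 238 higher (1.39%) and 241 lower (1.41%). The 4 pairs across sets gave more, with 2146 higher (12.5%) and 467 lower (2.72%) for CHR minus BaP, and 2676 (15.6%) and 1344 (7.84%) for CHR minus PH. BA minus BaP gave 2627 (15.3%) and 1771 (10.3%), and BA minus PH gave 2967 (17.3%) and 2265 (13.2%). These pairs share arrays. In Cy5, CHR minus BA gave 1110 genes higher (6.48%) and 1106 lower (6.45%), and BaP minus PH gave 1096 (6.39%) and 1028 (6%). There 444 of the 781 genes higher in CHR were also called higher and 409 of the 691 lower ones lower, while 12 were called the opposite way.

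Where CHR and BA differed, BA mostly lay farther from BaP and PH than CHR did. CHR lay nearer to the mean of BaP and PH than BA did for 600 of the 781 higher genes (76.8%) and 536 of the 691 lower genes (77.6%). These counts include genes in which CHR lay between BA and that mean. LPCAT2, an acyltransferase of phosphatidylcholine synthesis, had levels of 5.48, 5.34 and 5 (the floor) on CHR arrays, none above background, and 11.39, 11.54 and 11.56 on BA arrays, at least 73.4-fold lower in CHR (adjusted p = 2.31e-08 by limma). It was at 5.50 to 5.87 on BaP arrays and 6.24 or less on PH arrays. PLA2G2A, a secreted phospholipase, had levels of 7.62, 7.45 and 7.60 on CHR arrays and 12.21, 12.67 and 12.70 on BA arrays, a difference of -4.97 ± 0.20 (SE, adjusted p = 3.17e-09), and was at 7.18 to 7.95 on BaP and PH arrays. RELN, the matrix protein reelin, had levels of 9.70, 9.32 and 9.32 on CHR arrays and 13.65, 14.11 and 14.06 on BA arrays, a difference of -4.49 ± 0.15 (SE, adjusted p = 9.65e-10), and was at 10.25 to 10.63 on BaP and PH arrays. In these genes CHR, BaP and PH were low and BA was high.

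The highest CHR minus BA differences had BA low instead. PTGDR2, a prostaglandin D2 receptor, had levels of 12.74, 12.42 and 12.08 on CHR arrays and 8.46, 8.40 and 7.84 on BA arrays, a difference of 4.18 ± 0.18 (SE, adjusted p = 6.08e-09), and was at 11.58 to 11.96 on BaP and PH arrays. SLC16A6, of the monocarboxylate transporter family, differed by 4.13, with levels of 11.34 to 11.49 on CHR and 7.20 to 7.44 on BA arrays. IRAG2, a membrane protein of the endoplasmic reticulum, differed by 4.03 and stood above background on 1 BA array. Among list members, DKK1, a WNT inhibitor on chromosome 10, differed by -3.05, with levels of 10.30, 10.37 and 10.45 on CHR arrays and 13.36, 13.46 and 13.46 on BA arrays. KRT19, a keratin of bile duct cells, differed by -2.26, CYP24A1, which breaks down vitamin D, by 2.82, KNG1 by 2.98 and BHMT, a methyltransferase of homocysteine, by 2.69.

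The list of ATF4 and the unfolded protein response had the largest number of calls between CHR and BA of the lists read, though not the largest share, since 3 of 5 leukocyte markers were called. Among those 3, CD14 did not stand above background on any CHR array. ATF4 is a transcription factor made in larger amounts when amino acids are short or the endoplasmic reticulum is stressed, and it drives amino acid synthesis and transport. Of 29 members 12 were higher in CHR and 2 lower, beside 4.56% and 4.03% of all genes, with a median of 0.71 beside 0.02. After median centring the counts were again 12 and 2, beside 4.8% and 3.94% of all genes. The members named next were in part chosen after their values were seen. Between sets the same list had 7 members higher and 5 lower, beside 12.8% and 4.67% of all genes. The counts were 3 and 11 after median centring, beside 10.2% and 21.3% of all genes. With 1 mean per compound, 2 against 2, they were 7 and 0, beside 1986 and 432 of all 17139 genes.

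ATF4 binds with C/EBP proteins at the element TGATGNAA. This element was searched on both strands in the 250 bases before the RefSeq start (GRCh38.p14). It was found for 2 of 10 genes higher in CHR that had a promoter entry (20%), for 2 of 16 other members (12.5%) and for 278 of 13547 tested genes (2.05%). The promoters of the 2 genes, ATF3 (chr1:212565157-212565406, plus strand) and ASNS (chr7:97872409-97872658, minus strand), are shown 5′ to 3′ with the element in capitals, 191 and 68 bases before the start.
ATF3: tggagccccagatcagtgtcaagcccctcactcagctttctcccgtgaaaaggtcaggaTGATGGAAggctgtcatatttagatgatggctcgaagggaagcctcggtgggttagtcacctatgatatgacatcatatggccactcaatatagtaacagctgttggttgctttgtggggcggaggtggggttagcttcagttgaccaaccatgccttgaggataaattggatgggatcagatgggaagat
ASNS: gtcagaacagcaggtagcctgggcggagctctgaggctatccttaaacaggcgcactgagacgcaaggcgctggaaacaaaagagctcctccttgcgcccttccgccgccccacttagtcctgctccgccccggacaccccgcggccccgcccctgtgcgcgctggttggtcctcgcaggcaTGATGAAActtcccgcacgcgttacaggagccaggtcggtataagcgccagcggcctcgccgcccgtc
A match describes these letters and shows no binding.

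ATF3, a stress-induced transcription factor, had levels of 12.84, 12.47 and 12.34 on CHR arrays and 10.39, 10.77 and 10.57 on BA arrays, against 12.95, 13.00 and 12.95 on BaP arrays and 12.60, 12.71 and 12.82 on PH arrays. CHR minus BA was 1.97 ± 0.13 (SE, adjusted p = 2.05e-07). ASNS, asparagine synthetase, had levels of 15.73, 15.40 and 15.15 on CHR arrays and 14.04, 13.86 and 13.78 on BA arrays, against 15.48 to 15.71 on BaP arrays and 15.64 to 15.86 on PH arrays, and CHR minus BA was 1.53 ± 0.13 (SE, adjusted p = 1.88e-06) with 1 array saturated. On the probe used, the BA arrays were the low ones in both genes. On a second probe CHR minus BA was 1.80 for ATF3 and -0.49 for ASNS, so the 2 ASNS probes disagree.

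Enzymes and transporters of sulfur amino acids were in the same group. CTH, which makes cysteine, had levels of 13.78, 13.46 and 13.45 on CHR arrays and 10.56, 10.57 and 10.49 on BA arrays, against 14.09, 14.10 and 14.17 on BaP arrays and 13.83, 13.95 and 14.01 on PH arrays, and CHR minus BA was 3.02 ± 0.09 (SE, adjusted p = 4e-10). SLC7A11, which imports cystine, differed by 1.75 and CBS, the enzyme before CTH, by 1.05. PHGDH, the first enzyme of serine synthesis, differed by 1.13, VLDLR, a lipoprotein receptor, by 1.99, DDIT3, the stress factor CHOP, by 1.13, STC2 by 1.19 and CEBPG, a partner of ATF4, by 1.36. For 10 of the 12 genes all CHR, BaP and PH arrays lay above all BA arrays.

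NUPR1, a stress-induced chromatin protein, was higher in CHR than in all others, with levels of 14.01, 14.15 and 14.19 on CHR arrays and 11.23, 11.38 and 11.28 on BA arrays, and with 12.01 to 12.10 on BaP and 11.57 to 11.67 on PH arrays. The 2 exceptions among the 12 were PHGDH and DDIT4, an inhibitor of mTOR, whose BaP and PH means lay below the BA mean. DDIT4 had levels of 15.72, 15.52 and 15.59 on CHR arrays and 14.56, 14.43 and 14.71 on BA arrays, against 12.95, 13.02 and 12.92 on BaP arrays and 12.65, 12.60 and 12.65 on PH arrays. The 2 members lower in CHR were MANF (-1.42) and SDF2L1 (-1.20), both proteins of the endoplasmic reticulum.

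**Figure D4:**
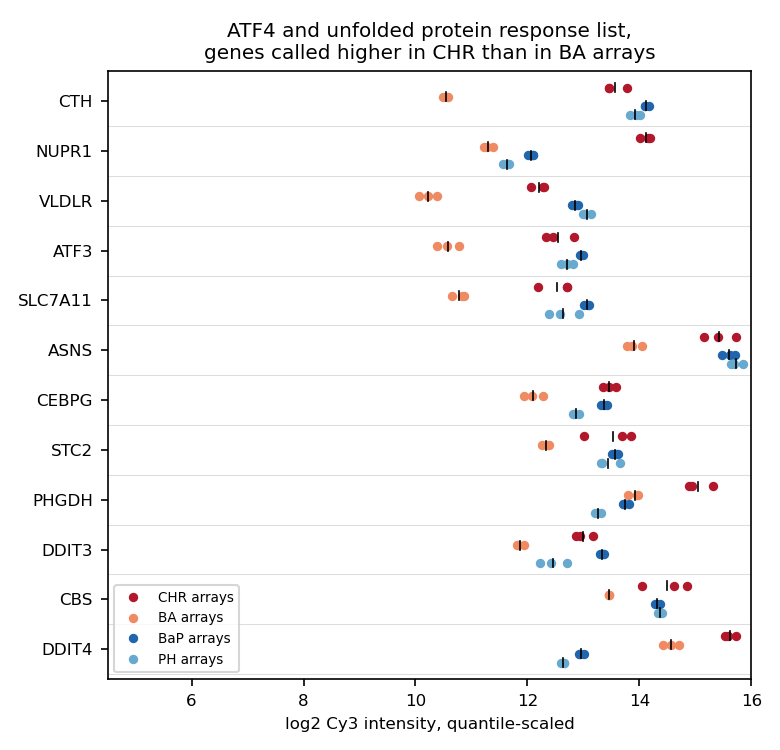
Each point is the quantile-scaled log2 Cy3 intensity of 1 array, with a black bar at the mean of each compound, for the 12 members of the ATF4 and unfolded protein response list that were higher in CHR than in BA arrays. For 10 of the 12 the 3 BA points lie below all CHR, BaP and PH points, as for CTH at 10.49 to 10.57.

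Other lists also differed between CHR and BA. Of 20 genes of the urea cycle and amino acid breakdown 6 were higher in CHR and 0 lower (median 0.51), and of 26 genes of glycolysis and hypoxia 0 were higher and 7 lower (median -0.46), beside 4.56% and 4.03% of all genes. After median centring the counts were 7 and 0, and 0 and 7, beside 4.8% and 3.94% of all genes. TAT, tyrosine aminotransferase, had levels of 9.79, 9.63 and 9.80 on CHR arrays and 7.69, 7.97 and 8.02 on BA arrays, a difference of 1.84. PFKFB4, a regulator of glycolysis, had levels of 10.33, 10.19 and 10.26 on CHR arrays and 12.79, 12.27 and 12.44 on BA arrays, a difference of -2.24, and CA9, a hypoxia-induced carbonic anhydrase, differed by -1.02. Of 5 leukocyte markers 3 were higher in CHR and 0 lower, CD68, a lysosomal protein of macrophages, by 1.88. Among these 3, CD14 differed by 1.55 but stood above background on 0 CHR arrays and on 3 BA arrays. The part of the leukocyte markers in the other CHR minus BA differences was not tested.

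Chromosome 10 genes were lower and chromosome 7 genes higher on the BA arrays as whole groups, a pattern chosen for description after the values were seen. For the 452 chromosome 10 genes with a mean level of 9 or more, the median level relative to the mean of the 12 arrays, after subtraction of the same over all genes, was 0.033 ± 0.004 on CHR and -0.399 ± 0.014 on BA arrays, and 0.153 ± 0.008 on BaP and 0.170 ± 0.012 on PH arrays (SD, n = 3 each). For the 524 chromosome 7 genes it was -0.066 ± 0.007 on CHR and 0.152 ± 0.008 on BA arrays, and -0.056 ± 0.005 on BaP and -0.031 ± 0.010 on PH arrays (SD, n = 3 each). BA thus stood apart from CHR, BaP and PH in opposite directions on the 2 chromosomes.

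The Cy5 channel gave like values, -0.394 ± 0.011 on BA arrays for chromosome 10 and 0.156 ± 0.034 for chromosome 7 (SD, n = 3 each). The median CHR minus BA difference was 0.41 for chromosome 10, and it was above 0 in 14 of 14 windows of 10 Mb (0.26 to 0.68). For chromosome 7 it was -0.21, below 0 in 15 of 16 windows, with 1 window at 0.10. Of tested genes on chromosome 10, 13.5% were called higher in CHR than in BA, beside 4.56% of all genes. Copy number was not measured here.

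**Figure D5:**
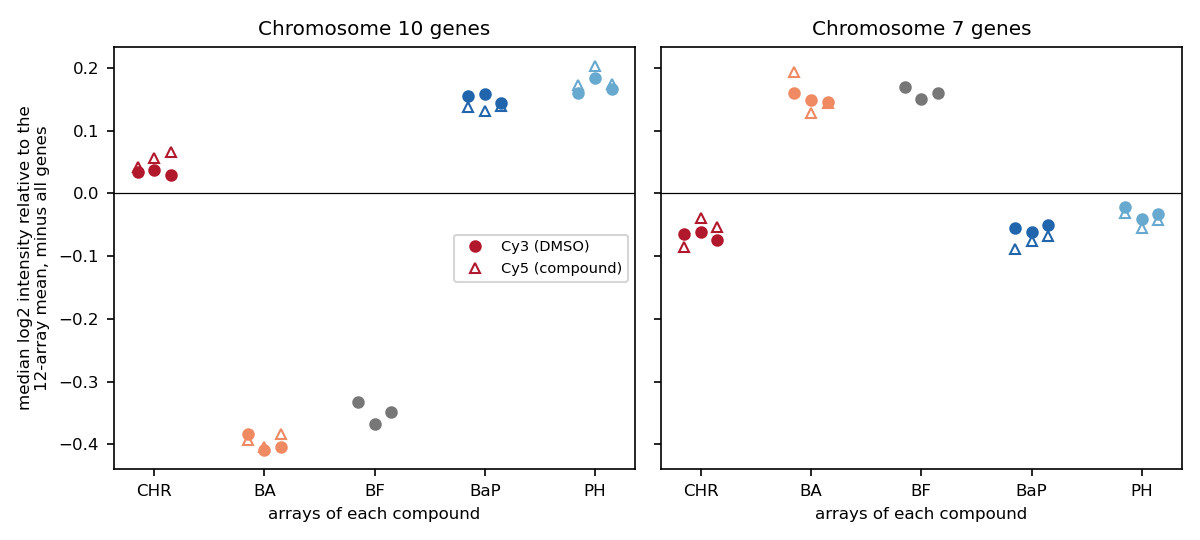
Each point is 1 array, and the vertical axis gives the median log2 intensity of chromosome 10 (left) or chromosome 7 (right) genes relative to the 12-array mean, minus the same over all genes, with filled circles for Cy3 (DMSO) and open triangles for Cy5 (compound; not shown for BF). The BA and BF arrays lie together, at -0.399 and -0.350 on chromosome 10 and at 0.152 and 0.161 on chromosome 7 in Cy3, apart from CHR, BaP and PH.

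The DMSO channels of 3 further arrays, those of benzo[k]fluoranthene (BF), were scaled to the same distribution and used as side values only. They lay nearer to the CHR and BA mean than to the BaP and PH mean for 1971 of the 2199 higher genes (89.6%) and 749 of the 800 lower genes (93.6%). Where CHR and BA differed, they lay nearer to BA for 692 of 781 genes (88.6%) and 605 of 691 (87.6%). LPCAT2 was at 11.14 ± 0.06 on BF arrays, RELN at 13.99 ± 0.19, CTH at 11.20 ± 0.09, DKK1 at 13.69 ± 0.07 and ALDH1L2 at 8.97 ± 0.23 (SD, n = 3), close to the BA levels. All 12 ATF4 list genes higher in CHR had BF nearer BA than CHR. On chromosome 10 the BF value was -0.350 ± 0.017 and on chromosome 7 it was 0.161 ± 0.009 (SD, n = 3). The raw median net Cy3 signal of the BF arrays was 486 to 580 intensity units, in the range of the BaP and PH arrays and below that of CHR and BA. Between 67.8% and 69.2% of BF spots stood above background, below all 12 other arrays and nearest to the CHR arrays (71.1% to 73.5%). The part of either measure in the BF values was not tested.

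BaP minus PH gave the fewest calls of the 6 pairs of compounds. PTGES, prostaglandin E synthase, had levels of 9.17, 9.22 and 9.23 on BaP arrays and 6.52, 5 (the floor) and 6.16 on PH arrays, a difference of 3.31 ± 0.36 (SE, adjusted p = 0.000236), and stood above background on 1 PH array. MED18, a Mediator subunit, had levels of 10.91, 10.94 and 10.98 on BaP arrays and 8.51, 7.61 and 7.92 on PH arrays, a difference of 2.93, and PTAFR, the receptor of platelet-activating factor, differed by 2.72. In Cy5 the same differences were 4.10 for PTGES, 0.78 for MED18 and 4.21 for PTAFR.

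The lowest BaP minus PH values rested on the PH arrays 2 and 3. CCDC42 had levels of 7.02, 6.94 and 7.42 on BaP arrays and 8.26, 11.60 and 11.15 on PH arrays, a difference of -3.21. KRT73, a keratin of hair follicles, had levels of 5.79, 5.95 and 5.87 on BaP arrays and 8.13, 10.51 and 10.68 on PH arrays, a difference of -3.91. The antisense RNA gene ZNF22-AS1 was not above background on BaP arrays and had 7.03, 10.09 and 10.27 on PH arrays, at least 14.6-fold lower in BaP (adjusted p = 0.00278 by limma), a call lost with a higher floor (-2.13, adjusted p = 0.0753 by limma). PH array 1 lay below arrays 2 and 3 in each of these genes. The PH arrays had the widest spread of the 4 compounds, with a range of 4-fold or more for 1042 genes, against 161 on CHR, 97 on BA and 114 on BaP arrays. Without PH array 1 the calls of BaP minus PH numbered 1137 in place of 479, and after median centring 123 genes were higher and 1116 lower.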

How the data were processed

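The deposited scanner output holds the intensity of each spot and of its local background (pixel mean, median and SD, neither subtracted nor normalized) and the percent of saturated pixels, per the file headers. Scanner settings, software and slide or scan dates are not given in the sources used here. Only the Cy3 (DMSO) channel of the CHR, BA, BaP and PH arrays entered the main values. The members, lists and tests were chosen with earlier results of these data known.

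Control spots were dropped, and the background median was subtracted from each spot's mean. The 12 arrays were quantile-scaled, and values were floored at 32 intensity units before log2. The log2 values of the spots of a probe were then averaged. Of 41000 probes 26427 were named (22633 by accession, 2488 by symbol and 1306 by an older symbol, through RefSeq), for 17272 genes. The brightest probe stood for a gene. A gene was tested (17139) if, for any compound, its spot mean exceeded background by over 2 background SDs on 2 or more of the 3 arrays. A probe counted as saturated on an array at 50% or more saturated pixels. The number of arrays limits the precision.

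The set difference was fitted with limma with the compound as a random block (consensus correlation 0.549 in Cy3 and 0.608 in Cy5), since arrays of a compound may share RNA. Pairs of compounds came from 1 mean per compound. Tests were 2-sided, adjusted by Benjamini and Hochberg over all genes, and a call needed an adjusted p under 0.05 and 2-fold. Named genes are the 12 highest and 12 lowest set differences among called genes with separate sets, detected on all arrays of the higher set and never saturated, the 3 highest and 3 lowest of CHR minus BA and BaP minus PH, up to 5 called members of each of 36 lists, CTSD and the hepatocyte markers. Of these, 3 genes are not reported here. Where the lower group of a comparison did not stand above background on any array, a lower bound is given. Deviations of same-numbered arrays had a mean correlation of 0.030 over 18 pairs, from -0.060 to 0.121. For arrays of other numbers it was -0.015 over 36 pairs, from -0.107 to 0.064. The main fits therefore did not pair arrays by number, and the labels do not say whether numbers pair them. Fits were checked on simulated data. For the set difference, the simulated spread between compounds was a fixed value that was not taken from these arrays. R 4.3.3, limma 3.58.1, Python 3.11.15, pandas 2.3.3 and matplotlib 3.10.9 were used.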

Additional observations from a re-analysis of the deposited data

Results flagged for a closer look

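In 3 of 54 groups of 6 arrays, 1 array stood far from the other 5 by Dixon's test, which chance alone does for about 1 group in 20. Among the BaP and PH arrays, IRF7 was at 8.21 on PH array 3 (others 8.96 to 9.15), and KIR3DL3 was at the floor, a log2 level of 5, on PH array 3 (others 6.68 to 7.60). TMEM63B was at 8.33 on PH array 1 (others 8.71 to 8.88). All 3 genes were called higher in the CHR and BA arrays with separate sets. Both were conditions of the choice of genes tested here, so they say nothing about the outlying arrays.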

How the results depend on the processing

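The main set difference had 2999 calls. Median centring gave 5401, a 1.5-fold threshold 5715 and a 4-fold threshold 1077, and leaving out 1 array gave 2872 to 3163. CHR minus BA had 1472 calls, but 821 when genes had to stand above background on all 12 arrays, where fewer genes were tested, 3293 at 1.5-fold, 250 at 4-fold and 1335 to 1537 with 1 array left out. BaP minus PH had 479 calls, but 281 with normexp background, 1239 after median centring, 235 with a higher floor, 144 with all 12 arrays above background, 1232 at 1.5-fold, 48 at 4-fold, and 262 to 1137 with 1 array left out. The 2 ends were without BaP array 2 and without PH array 1, and without BaP arrays 1 and 3, each in turn, there were 316 and 263 calls. In Cy5 the 1700 calls became 0 with 2 compound means against 2, 3032 with no random block and 681 at 4-fold, and 1446 to 1668 with 1 array left out. After median centring 54.1% of the Cy5 calls were higher, against 79.8% before it, and 9.9% of the BaP minus PH calls, against 49.7%. With the array number as a replicate block the counts were 2976, 1460, 461 and 1490 for the set, CHR minus BA, BaP minus PH and Cy5, and no count moved by over 1.5 times. The chromosome 10 and 7 medians of CHR minus BA, chosen after seeing the data, stayed at 0.370 to 0.428 and -0.227 to -0.201. Of 145 named genes and contrasts followed, 85 kept their call under every alternative run. NRAP turned to 0.62 (adjusted p = 0.52 by limma) when spots marked not found were left out, and the cause was not tested. A slide or scan block was not run, since the sources used here give neither. Dim genes, saturated spots and 3 arrays per compound limit what could be measured.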
